A study of Mus musculus with 190 samples.

Results

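The middle step of skin severity was examined in blood of NC/Nga mice, which serve as a model of atopic dermatitis because many develop itchy skin lesions outside pathogen-free housing. The libraries were chosen by their labels: day 40 and day 44 samples of groups 1 to 9 with a dermatitis score of 1 or 2. They number 38 of the 190 libraries of the series and of the 90 conventional libraries of those days, with 11 libraries of score 1 and 27 of score 2. All came from male wild-type NC/Nga mice in conventional housing, and the labels name no other treatment. Whole blood was drawn from the tail vein without anesthesia, and total RNA was sequenced from stranded libraries made with a kit that depletes ribosomal and globin RNA. Groups 2, 4, 6 and 8 were sampled on day 40, and groups 1, 3, 5, 7 and 9 on day 44. Each group also has blood libraries from an earlier day of the series, and that day differs between the groups. No label or protocol read here states the mice's ages or how the score is defined. Where other libraries are set beside these, they are 12 conventional libraries of score 0 or 0.5, 40 of score 3 or 4, and 5 specific-pathogen-free (SPF) libraries of score 0 taken on day 44.

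Whole blood holds red cells, platelets and white cells, and a total-RNA library mixes the RNA of all of them. Mature red cells have no nucleus. Young red cells, the reticulocytes, still carry RNA for the membrane skeleton, for heme synthesis and for transport proteins, and more of them circulate when red cell production is stimulated. Neutrophils are short-lived phagocytes whose number and state follow inflammation, eosinophils and basophils mark type 2 immunity, and type I interferon induces a shared antiviral gene programme in most leukocytes. In whole blood, more cells of a type and more RNA per cell cannot be told apart.

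Only groups 2, 3, 5, 6 and 7 held both scores. The 11 score 1 libraries were therefore compared, within their groups, with 9 score 2 libraries. The other 18 score 2 libraries, in groups 1, 4, 8 and 9, added to the estimate of spread only. Total counts ran from 21487113 to 56017843 over the 38 libraries. Genes are compared by edgeR's quasi-likelihood test with group as a covariate, and differences are log2 values of score 2 minus score 1 with standard errors (SE). A gene was called at an adjusted p under 0.05, and CPM is the count scaled to library size with TMM factors. Nothing in the labels says that the libraries of a group came from separate mice, so the p-values measure the spread between these libraries. Of 5 library measures, the share of counts on mitochondrial rRNA genes differed most. It averaged 14.5% in score 1 and 9.29% in score 2 libraries of the groups with both scores (exact permutation within groups, two-sided, p = 0.0169, adjusted p = 0.0847). For the globin share, the share on the 7SL RNA genes Rn7s1 and Rn7s2, the total count and the number of genes with a count, the adjusted p was 0.287 or more in the same test.

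No gene passed the test between score 2 and score 1. Of 14397 genes tested, 0 were called (0%), and the lowest edgeR adjusted p was 0.134. An unadjusted p under 0.05 was reached by 2396 genes, of which 1595 were higher (11.1% of those tested) and 801 lower (5.56%). DESeq2, run on the same counts and design, called 653 genes (4.54%), of which 528 were higher. The count of called genes therefore depends on the tool, and the genes below are given as values that did not pass the edgeR test.

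Red cell genes had the largest median difference of the gene lists examined. All 24 genes of the erythroid list had a fitted value above 0, beside 47.3% of all genes tested, and 21 of them were higher at an unadjusted p under 0.05. The median difference of the list was 0.99, beside -0.02 over all genes tested. None of the 24 passed the edgeR test, whereas DESeq2 called 13 of them as higher, beside 528 of 14397 genes tested. Slc4a1, the anion exchanger band 3 of the red cell membrane, ran from 467 to 1672 CPM in score 1 libraries (median 1011) and from 644 to 14510 CPM in score 2 libraries (median 1391). Both scores overlapped in the lower part of that range, and the high end was held by score 2 alone. The fitted difference of Slc4a1 was 1.51 ± 0.45 (SE). Ank1, the ankyrin that ties band 3 to the spectrin skeleton, differed by 1.44 ± 0.40, and Epb42, a further protein of that complex, by 1.61 ± 0.49. For these 3 genes the medians over all libraries of the scores lay closer together than the fitted values.

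Members of other roles lay on the same side. The spectrin gene Sptb differed by 1.37 ± 0.42. Among blood group genes, Rhd differed by 1.54 ± 0.47 and Kel by 1.43 ± 0.40. Alas2, which catalyses the first step of heme synthesis in red cells, differed by 0.91 ± 0.33. Fech, which inserts iron in the last step of heme synthesis, differed by 0.82 ± 0.29. Slc25a37, the mitochondrial iron importer, differed by 0.92 ± 0.29, and the transferrin receptor gene Tfrc by 1.01 ± 0.37. The transcription factor genes Klf1, Gata1 and Tal1 differed by 1.07 ± 0.38, 0.78 ± 0.34 and 0.46 ± 0.26. Epor, the erythropoietin receptor, had the smallest value of the list, 0.04 ± 0.38, at a median below 1 CPM in both scores. The 4 globin genes tested did not share the pattern, with 1 of 4 above 0 and a median of -0.09, in libraries whose globin RNA had been depleted.

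Promoter sequences of erythroid genes are shown because these genes lay on the same side together and GATA1 and KLF1, the transcription factors that drive red cell maturation, are themselves members of the list. The windows of 300 bases end shortly after the gene start and come from RefSeq on build GRCm38.p6, whereas the counts were made on GRCm39. Of the 24 genes, 16 matched the table, with 18 windows. The GATA letters AGATAA were searched on both strands and stood in 7 of the 18 windows (38.9%), beside 11.2% of all 32851 windows. The KLF letters CCNCNCCC stood in 61.1% of the erythroid windows and 49.5% of all windows, and both stood in 22.2% and 3.45%. In 20 windows of the mature neutrophil list the GATA letters stood in 10%, the KLF letters in 70% and both in 10%. In 14 windows of the platelet list the shares were 28.6%, 42.9% and 0%. The lists were not compared by a test. Of the 4 erythroid windows with both, 3 are printed as examples, and they are not a ranking by fitted difference. They are printed 5′ to 3′ on the strand of the gene, with matches in capitals. They lie at chr4:134864286-134864585 (plus strand) for Rhd, chrX:150547167-150547466 (plus strand) for Alas2 and chr4:46404134-46404433 (minus strand) for Hemgn.
Rhd: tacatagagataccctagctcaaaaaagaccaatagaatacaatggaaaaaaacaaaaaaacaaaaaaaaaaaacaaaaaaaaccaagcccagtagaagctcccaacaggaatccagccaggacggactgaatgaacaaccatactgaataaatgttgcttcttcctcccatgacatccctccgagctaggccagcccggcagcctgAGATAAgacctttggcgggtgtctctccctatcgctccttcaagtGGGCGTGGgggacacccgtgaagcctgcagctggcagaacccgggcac
Alas2: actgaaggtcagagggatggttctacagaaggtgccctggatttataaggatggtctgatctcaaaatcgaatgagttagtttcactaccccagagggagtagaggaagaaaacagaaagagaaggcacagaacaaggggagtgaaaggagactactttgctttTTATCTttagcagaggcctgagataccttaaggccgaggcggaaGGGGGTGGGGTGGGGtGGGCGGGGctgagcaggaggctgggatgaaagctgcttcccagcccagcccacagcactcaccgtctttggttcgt
Hemgn: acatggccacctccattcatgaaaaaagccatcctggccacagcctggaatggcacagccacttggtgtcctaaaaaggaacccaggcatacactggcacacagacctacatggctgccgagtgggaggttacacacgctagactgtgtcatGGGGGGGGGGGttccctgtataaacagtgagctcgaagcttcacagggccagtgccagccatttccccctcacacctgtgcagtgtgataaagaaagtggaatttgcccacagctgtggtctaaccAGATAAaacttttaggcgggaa
Rhd and Alas2 hold the GATA letters before the gene start, and Hemgn holds them after it. The KLF matches of Hemgn lie in 1 run of G bases, and neighbouring matches overlap in Alas2 and Hemgn. A match of letters is a description and does not show that a factor binds there. Hemgn, a nuclear protein of red cell precursors, differed by 0.79 ± 0.28.

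Levels of the erythroid list differed between libraries more than between scores. The mean log2 CPM of the 24 genes ran from 5.39 to 7.14 in score 1 libraries (median 6.33) and from 5.84 to 9.45 in score 2 libraries (median 6.68). Of the 27 score 2 libraries, 8 lay above the highest score 1 library and 19 lay within the score 1 range. Of those 8, 3 were in groups that held both scores and so entered the difference. The difference of means within a group was 0.98 in group 2, 0.31 in group 3, 0.73 in group 5, 0.27 in group 6 and 1.66 in group 7, so score 2 was higher in 5 of 5 groups. In group 2 the score 1 libraries were at 6.45 and 7.14 and the score 2 libraries at 6.99 and 8.56. In group 5 the score 1 libraries were at 5.81 and 6.33 and the score 2 libraries at 5.88 and 7.72. In group 7 the score 1 libraries were at 5.39, 6.12 and 6.62 and the score 2 libraries at 6.63 and 8.78. In each of these 3 groups 1 score 2 library stood apart and the other lay close to the score 1 libraries. In group 3 the single libraries were at 5.91 and 6.22, and in group 6 the score 1 libraries at 6.01, 6.75 and 6.76 overlapped the score 2 libraries at 6.67 and 6.87.

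**Figure D1:**
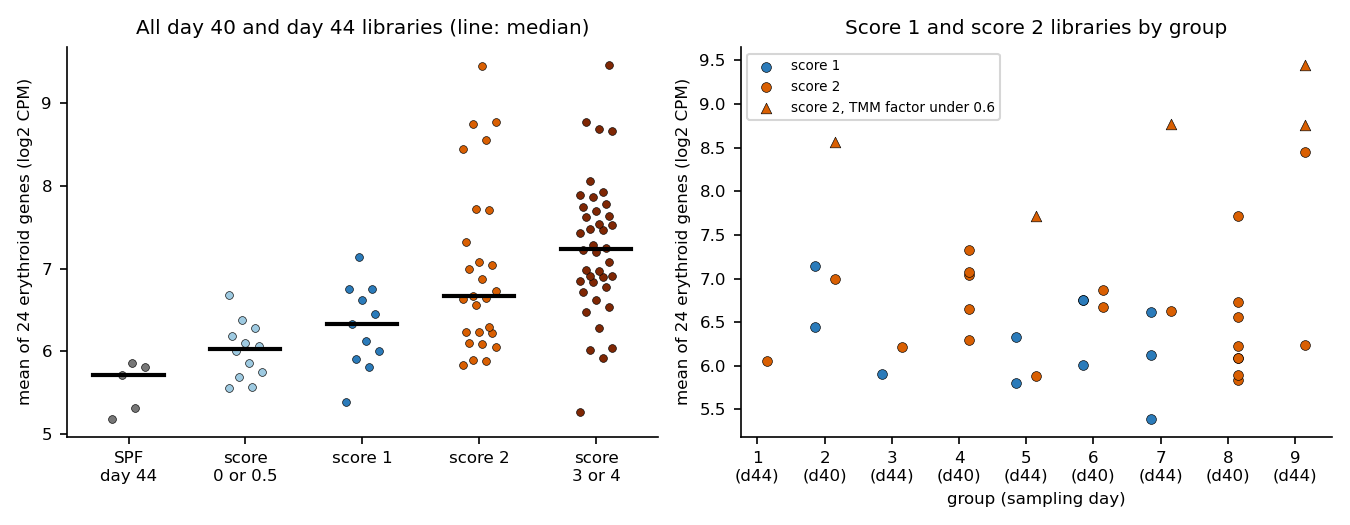
Mean log2 CPM of the 24 erythroid genes, 1 point per library: left, all day 40 and day 44 libraries by score class with the median as a line; right, score 1 and score 2 libraries by group, with triangles for score 2 libraries whose TMM factor was under 0.6. The triangles in groups 2, 5 and 7 are the high score 2 libraries of those groups, and score 2 medians lie at 6.68 beside 6.33 for score 1.

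Most of the high libraries had a low TMM factor, whereas their globin and mitochondrial rRNA shares varied. A TMM factor well below 1 marks a library in which highly expressed genes take up an unusual part of the counts, and 7 of the 8 high libraries had a factor under 0.9. The factor was 0.58 for the high library of group 2, 0.56 for that of group 5 and 0.53 for that of group 7, and 0.35 and 0.33 for 2 libraries of group 9. The high library of group 2 also had 0.368% of its counts on globin genes and 1.80% on mitochondrial rRNA genes, and that of group 7 had 1.10% and 3.54%. These were the lowest globin and mitochondrial rRNA shares of the 38 libraries. The high library of group 5 had 8.59% on globin and 15% on mitochondrial rRNA genes, and the 2 libraries of group 9 with the lowest factors had 8.91% and 10.8% on globin and 13.4% and 11.3% on mitochondrial rRNA genes. The remaining 3, 1 each in groups 4, 8 and 9, had 4.34%, 6.40% and 2.46% on globin and 8.72%, 9.34% and 6.39% on mitochondrial rRNA genes. The part of these measures in the erythroid difference was not tested. Without the 5 libraries with a factor under 0.6, the median of the erythroid list was 0.21. At an unadjusted p under 0.05 were 0 of its 24 genes. That choice was made after the data were seen, and all 5 were among the 8 high libraries. A smaller erythroid median was therefore in part set by the choice. Without the high library of group 7 alone, the median was 0.66 and 10 of 24 genes were at that level. With the globin and mitochondrial rRNA shares as covariates, the median was 0.20 and 0 of 24 genes were.

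**Figure D2:**
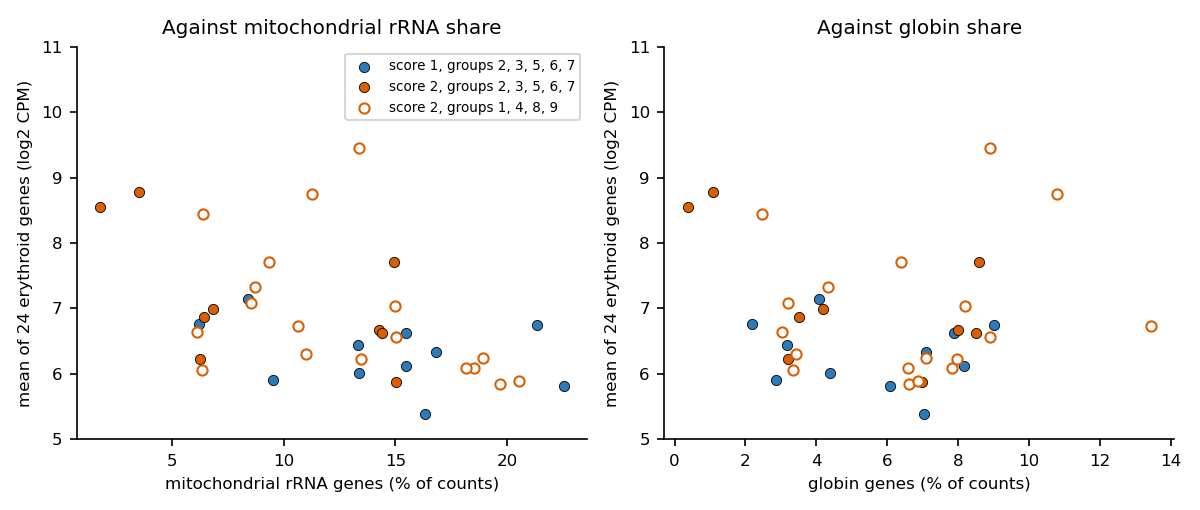
Mean log2 CPM of the 24 erythroid genes (vertical) against the percentage of counts on mitochondrial rRNA genes (left) and on globin genes (right), 1 point per score 1 or score 2 library, with open circles for groups that hold score 2 only. The 2 filled points at the far left of each panel are the high libraries of groups 2 and 7, at 1.80% and 3.54% mitochondrial rRNA.

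Cell division genes, which act in replication and mitosis, followed the erythroid list. Of 25 tested, 23 had a fitted value above 0 and 14 were higher at an unadjusted p under 0.05, with a median of 0.45. Among all genes tested, 47.3% had a fitted value above 0 and 11.1% were higher at that level. Mki67, the Ki-67 proliferation antigen, differed by 1.34 ± 0.42, and Top2a, a topoisomerase of dividing cells, by 0.61 ± 0.27. The list mean was higher in score 2 in groups 2, 3, 5 and 7 and lower in group 6. The median of the cell division list was 0.09 without the 5 libraries with a low TMM factor, with 1 gene higher at an unadjusted p under 0.05. These 5 were all high in erythroid genes, which this list followed, so a smaller median was in part set by the choice. Cytosolic ribosomal protein genes, which encode subunits of the ribosome, had 26 of 28 fitted values above 0 and a median of 0.23. Of the 28, 8 were higher at an unadjusted p under 0.05, beside 11.1% of all genes tested. Rps14 at 0.66 ± 0.22 and Rps9 at 0.59 ± 0.20 were among them, while Rpl3 was at -0.03 ± 0.10. For the cytosolic ribosomal protein list the median was 0.12 without the 5 libraries, and 0 genes were at that level.

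Genes of amino acid supply and one-carbon metabolism were split. Of 15 tested, 11 had a fitted value above 0, and 6 were higher at an unadjusted p under 0.05, with a median of 0.17. The shares of all genes tested were 47.3% and 11.1%. Mthfd2, a mitochondrial enzyme of the folate cycle, ran from 11.8 to 45.9 CPM in score 1 libraries (median 24.2) and from 12.3 to 554.6 CPM in score 2 libraries (median 35.4). In group 2, Mthfd2 was at 26.0 and 30.2 CPM in score 1 and at 87.2 and 164.5 CPM in score 2, with no overlap. In group 7 it was at 11.8, 24.2 and 40.9 CPM in score 1 and at 27.9 and 435.3 CPM in score 2. In group 3 it was at 15.8 and 16.5 CPM, which hardly differ. The fitted difference of Mthfd2 was 2.07 ± 0.52 (edgeR adjusted p = 0.134). Asns, asparagine synthetase, differed by 1.78 ± 0.57, Slc3a2 and Slc7a5, which form an amino acid transporter together, by 1.23 ± 0.33 and 1.01 ± 0.31, and Shmt2, a serine-using enzyme of the same folate cycle, by 0.95 ± 0.33. Mthfd2 was at 0.77 (unadjusted p = 0.104) without the 5 libraries with a low TMM factor. These libraries were all high in erythroid genes and were left out after the data were seen.

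**Figure D3:**
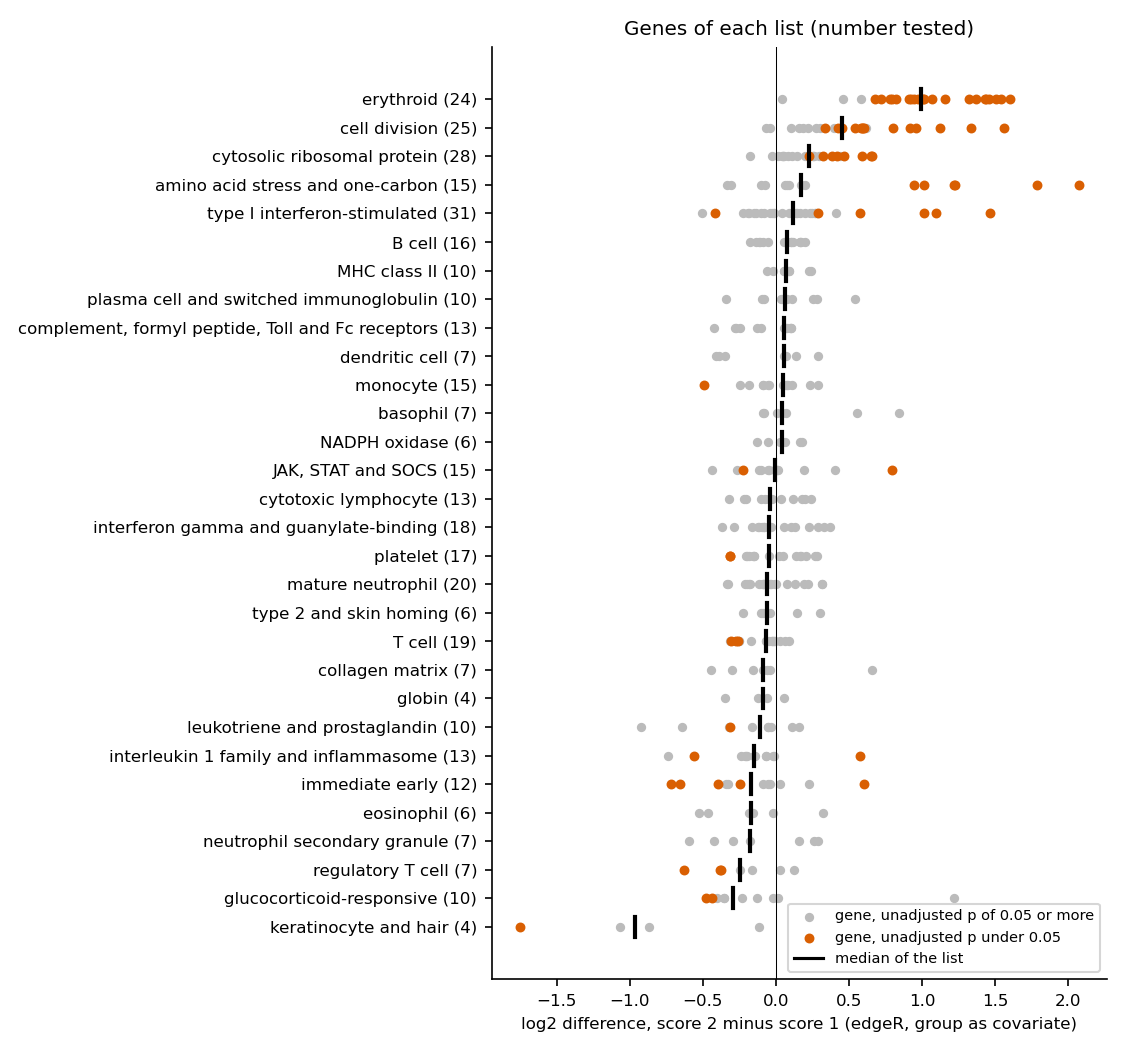
Fitted log2 difference of score 2 minus score 1 for each gene of the lists with 3 or more genes tested, with the median of each list as a black bar and genes at an unadjusted p under 0.05 in orange. The erythroid list lies to the right with a median of 0.99, while the mature neutrophil list, with a median of -0.06, centres near 0.

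Neutrophil genes did not separate score 2 from score 1. Of the 20 genes of the mature neutrophil list, 7 had a fitted value above 0, 0 were at an unadjusted p under 0.05 in either direction, and the median was -0.06. S100a8, a subunit of the calcium-binding protein calprotectin, ran from 114.7 to 2074 CPM in score 1 (median 1113) and from 335 to 3318 CPM in score 2 (median 950), with a fitted difference of -0.09 ± 0.40. Its partner S100a9 was at 0.13 ± 0.34. The direction varied between groups: the difference of list means was 1.16 in group 2, -1.68 in group 3, 0.05 in group 5, 0.79 in group 6 and -0.55 in group 7. A pair of score 1 libraries, library 6 of group 2 and library 2 of group 6, had the lowest neutrophil means of the 38, at 3.29 and 3.33. Secondary granule genes had 3 of 7 values above 0 (median -0.18), and receptors for complement, formyl peptides, Toll ligands and antibodies had 7 of 13 (median 0.06). The primary granule genes Mpo, Elane, Prtn3 and Ctsg, which mark immature neutrophils, were too low to be tested.

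Of the other white cell lists, those of B cells, MHC class II, monocytes and basophils had medians between 0.04 and 0.08, and those of T cells, regulatory T cells and cytotoxic lymphocytes had medians below 0. B cell genes had 10 of 16 values above 0 (median 0.08), with Cd79a, a chain of the B cell receptor, at 0.12 ± 0.23, and MHC class II genes had 8 of 10 (median 0.07). Monocyte genes had a median of 0.05 over 15 genes, and cytotoxic lymphocyte genes one of -0.04 over 13. T cell genes had 16 of 19 values below 0 (median -0.07), and Cd28, Il7r and Trac were lower at an unadjusted p under 0.05, by values of -0.26 to -0.31. Regulatory T cell genes had 5 of 7 values below 0 (median -0.24), and 3 of them were lower at an unadjusted p under 0.05. Beside both T cell counts, 5.56% of all genes tested were lower at that level. Il2ra, a chain of the interleukin 2 receptor, was at -0.63 ± 0.24, and Ikzf2, the Helios factor, at -0.38 ± 0.14, while Foxp3, the defining factor of these cells, was at -0.17 ± 0.32. For type 2 cells the data are thin: 6 of 10 eosinophil genes were tested (median -0.17). Ccr3, the eotaxin receptor, ran from 6.14 to 27.9 CPM in score 1 and from 2.91 to 28.7 CPM in score 2, with a fitted difference of -0.53 ± 0.29. The eosinophil granule genes Epx, Prg2, Prg3 and Ear1 were too low to be tested. The 7 basophil genes had a median of 0.04, with Mcpt8, a basophil protease, at 0.55 ± 0.34.

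Glucocorticoid-responsive genes had 8 of 10 values below 0 (median -0.29), with Tsc22d3, the leucine zipper GILZ, at -0.43 ± 0.17 and the metallothionein gene Mt1 at 1.22 ± 0.71 with a mean below 1 CPM in both scores. The mean level of the list was 2.39 ± 0.32 in score 1 (SD, n = 11) and 2.38 ± 0.33 in score 2 (SD, n = 27) on the log2 CPM scale, and it was higher in score 2 in 2 of 5 groups. Immediate early genes had 9 of 12 values below 0 (median -0.17). Of the 12, 4 were lower at an unadjusted p under 0.05, beside 5.56% of all genes tested. Fos, among these 4, was at -0.72 ± 0.30, while Jund was at 0.60 ± 0.29. Genes of tissues near the sampling site were in part too low to be tested. Those tested were 4 of 10 keratinocyte and hair genes (median -0.97), 1 of 10 cartilage and bone genes and 2 of 7 skeletal muscle genes. Of the collagen matrix genes, 7 of 9 were tested (median -0.09). Krt10, a keratin of the upper epidermis, was at -1.75 ± 0.84 with a mean below 1 CPM in both scores.

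The 12 genes named as lower had lower values in nearly every group, with the smallest p for the pseudogene Lrrc70. None passed the edgeR test (adjusted p = 0.134 for each). Lrrc70, listed as a transcribed pseudogene of a leucine-rich repeat protein, had the smallest p of all genes. It ran from 14.6 to 56.5 CPM in score 1 (median 23.7) and from 10.6 to 23.6 CPM in score 2 (median 16.0). In each of the 5 groups every score 1 library lay above every score 2 library, most narrowly in group 7, where the lowest score 1 library was at 14.6 CPM and the score 2 libraries were at 14.2 and 12.6 CPM. The fitted difference was -0.90 ± 0.17 (unadjusted p = 9.97e-06), and the gene passed in the fit of all 90 conventional libraries of these days with 1 call in 15356 genes tested (0.00651%, edgeR adjusted p = 0.0481). Lrrc70 overlaps Ipo11 on the same strand in the deposited annotation, so the source of its counts is uncertain. Score 3 or 4 libraries were at a median of 15.8 CPM for Lrrc70 and SPF libraries at 31.3 CPM.

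P2ry12, the platelet receptor for ADP, was also among the named genes. It ran from 283 to 907 CPM in score 1 (median 519) and from 151.5 to 571 CPM in score 2 (median 372). In group 2 its score 1 libraries were at 835.5 and 525 CPM and its score 2 libraries at 289 and 351 CPM, and in group 6 the score 1 libraries were at 592, 595 and 907 CPM and the score 2 libraries at 349 and 444.5 CPM. The scores overlapped in groups 5 and 7. The fitted difference of P2ry12 was -0.65 ± 0.17. Rap1b, a small GTPase that controls integrin activation, differed by -0.66 ± 0.17, Gucy1a1, a subunit of the nitric oxide receptor, by -0.50 ± 0.13, and Plcb1, a phospholipase downstream of G-protein receptors, by -0.55 ± 0.14. Calm2, one of the calmodulin genes, differed by -0.60 ± 0.14. Med12l differed by -0.46 ± 0.11; P2ry12 lies within it on the opposite strand, and whether strand was used in counting is not stated in the labels read here. The platelet list, which holds none of these named genes, centred near 0. It had 9 of 17 values below 0 and a median of -0.05, with Pf4 at -0.15 ± 0.19 and Ppbp at -0.18 ± 0.17, both chemokines of platelet granules. Gp6, the collagen receptor, was at -0.31 ± 0.12 and Clec1b, a lectin receptor, at -0.31 ± 0.15.

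Further named genes with lower values were Myct1 at -0.87 ± 0.18, the long noncoding RNA AI504432 at -0.63 ± 0.15, Snx10, an endosomal sorting nexin, at -0.51 ± 0.13, and Ifit2, an interferon-induced protein, at -0.41 ± 0.10. For 11 of the 12 genes the within-group difference was below 0 in 5 of 5 groups, the exception being Gucy1a1 in group 5. That the signs agree was in part required by the rule that named them. Without the 5 libraries with a low TMM factor, Lrrc70 was at -0.89, P2ry12 at -0.55, Rap1b at -0.53, Calm2 at -0.49 and Gucy1a1 at -0.50, and 12 of 12 were at an unadjusted p under 0.05. Over all genes, 455 of 14397 were lower at that level. The 12 were named for a small p with most of the same libraries, so their low p here was in part set by that choice.

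The 12 genes named as higher had varied functions, and Aup1 and Hectd4 were highest in the libraries that were high in erythroid genes. None of the 12 passed the edgeR test (adjusted p = 0.134 for each). Aup1, a protein of lipid droplets and protein degradation, differed by 1.07 ± 0.26. In group 7 Aup1 was at 5.15, 6.79 and 7.40 CPM in score 1 and at 9.97 and 38.9 CPM in score 2, with no overlap. Hectd4, a ubiquitin ligase, had a mean of 423 ± 131.4 CPM (SD) in score 1 and 1025 ± 972 CPM in score 2, and differed by 1.49 ± 0.37. Gsk3a, a kinase of glycogen metabolism and signalling, differed by 0.90 ± 0.23, and Limd1, a LIM-domain adaptor, by 0.65 ± 0.16. Hsd3b6, Gm14862 and Tinagl1 differed by 1.99 ± 0.47, 1.69 ± 0.41 and 1.86 ± 0.47 with a score 1 mean below 1 CPM. Mpp2 and Mettl22 differed by 1.30 ± 0.33 and 0.75 ± 0.19. Without the 5 libraries with a low TMM factor Aup1 was at 0.44, Limd1 at 0.25 and Hectd4 at 0.45, and 5 of the 12 were at an unadjusted p under 0.05. Over all genes, 205 of 14397 were higher at that level, and these 12 too had been named for a small p.

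**Figure D4:**
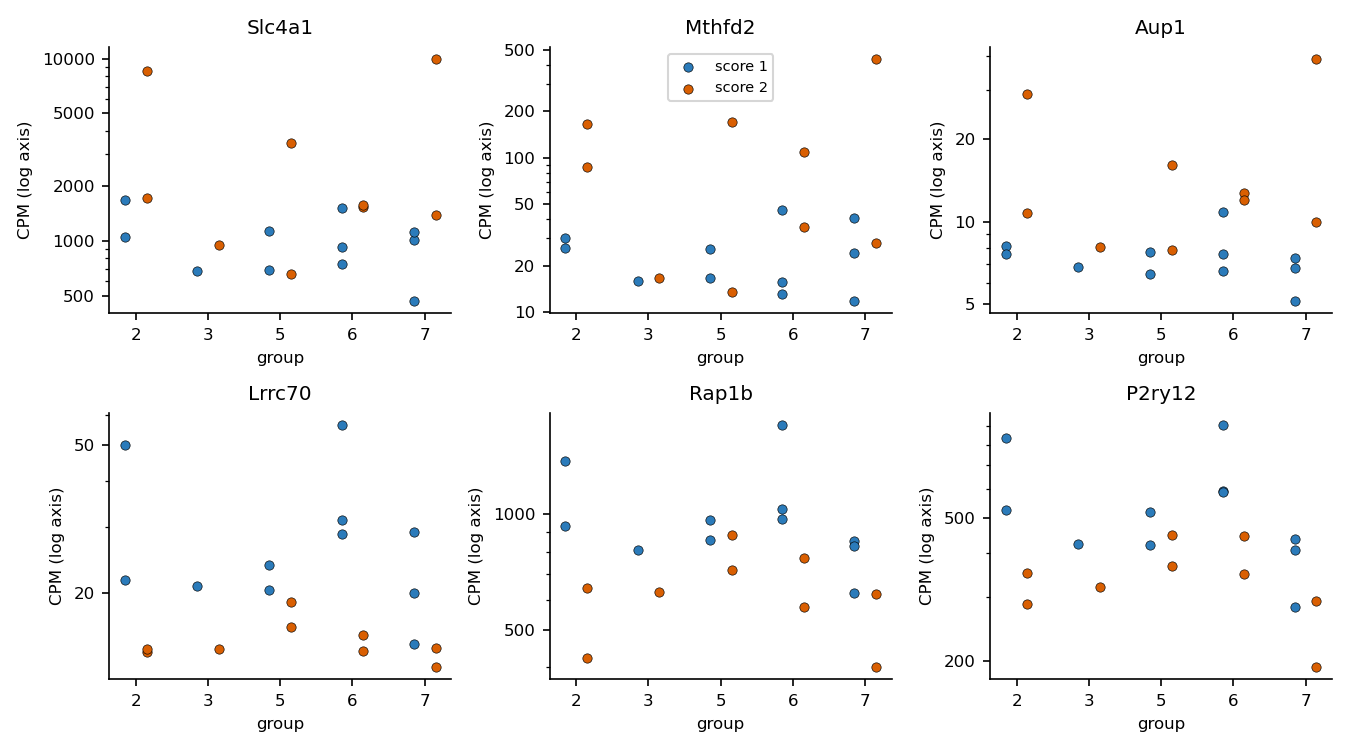
CPM on a log axis of 6 genes in each score 1 and score 2 library of groups 2, 3, 5, 6 and 7, 1 point per library. Slc4a1, Mthfd2 and Aup1 have their highest score 2 libraries in groups 2, 5 and 7, and score 1 libraries of Lrrc70 lie above the score 2 libraries in each of the 5 groups.

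The sampling days were compared by an interaction of score with day. The interaction test called 0 of 14397 genes with edgeR (lowest adjusted p = 0.762) and 2 with DESeq2, and 842 genes (5.85%) had an unadjusted edgeR p under 0.05. Within day 40 the same fit called 18 genes (0.125%), of which 17 were lower, and within day 44 it called 0, with 1948 at an unadjusted p under 0.05. Fitted on the day 40 libraries alone, 15 genes were called, Lrrc70, Myct1 and Calm2 among them at -1.39, -1.29 and -0.90. The other 12 of the 15 were Pla2g4a, Olfr32, Fkbp1a, Prkaa2, Mest, Gm15050, Med21, Yap1, Cd274, Lancl3 and Trappc2, which were lower, and Serpina3g, which was higher by 1.62. Day 40 rests on groups 2 and 6 only, with 5 score 1 and 4 score 2 libraries. Each group was sampled on 1 of these days. A difference between the days therefore cannot be told apart from a difference of groups 2 and 6 from groups 3, 5 and 7.

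The fitted values of type I interferon-stimulated genes lay mostly above 0 on day 40 and mostly below 0 on day 44, and no gene passed the test of the difference between the days. Over both days 18 of 31 had a fitted value above 0, with a median of 0.12. On day 40, 28 of 31 were above 0 with a median of 0.56, and on day 44, 7 of 31 with a median of -0.18. For 16 of the 31 genes the difference between the days had an unadjusted p under 0.05, beside 5.85% of all genes, and in all 16 the day 44 value was the lower one. None passed adjustment over all genes (lowest edgeR adjusted p = 0.845). The test does not let the score difference vary between the groups of a day. Its p-values measure the spread between libraries and not between groups, and day and group cannot be told apart. Oas1a, an enzyme that senses viral RNA, was at 1.06 on day 40 and -0.41 on day 44, and Oasl2 of the same family at 0.68 and -0.74. Ifit3, an antiviral protein, was at 0.66 and -0.50. The list mean on day 40 was 2.88 and 3.58 in score 1 and 3.82 and 3.90 in score 2 of group 2, and 2.87, 3.07 and 3.28 in score 1 and 3.60 and 3.63 in score 2 of group 6, with no overlap within a group. On day 44 the list mean ran from 3.56 to 3.99 in the 6 score 1 libraries and from 3.32 to 3.80 in the 5 score 2 libraries of groups 3, 5 and 7, with overlap. The neutrophil-poor score 1 libraries, 1 in group 2 and 1 in group 6, had interferon list means of 2.88 and 3.07, and their part in the day 40 difference was not tested. Neutrophil lists also had medians of opposite sign on the days: the mature neutrophil list had medians of 0.47 on day 40 and -0.48 on day 44, secondary granule genes 0.64 and -0.58, and the receptor genes for complement, formyl peptides, Toll ligands and antibodies 0.42 and -0.44. The difference between the days had an unadjusted p under 0.05 for 4 of 20 mature neutrophil, 2 of 7 secondary granule and 5 of 13 receptor genes. Isg15, Rsad2 and Oas3 were higher on both days, at 1.41 and 1.5, 0.72 and 1.24, and 1.38 and 0.89.

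The middle step was then set beside its neighbours in 1 fit of the 90 conventional libraries with 15356 genes tested. The steps share libraries, so their values are not independent. From score 0 or 0.5 to 1, 0 genes were called (0%) and 398 had an unadjusted p under 0.05, from 1 to 2, 1 gene was called, and from 2 to 3 or 4, 1268 genes (8.26%). The erythroid list had medians of 0.28, 1.05 and -0.08 in these steps. The list mean had a median over libraries of 5.72 in SPF mice, 6.03 at score 0 or 0.5, 6.33 at score 1, 6.68 at score 2 and 7.24 at score 3 or 4. These medians take no account of group. They rose from score 2 to 3 or 4, whereas the fitted median of that step was -0.08. Of the score 3 or 4 libraries, 22 of 40 lay above the highest score 1 library, and 0 of 12 with score 0 or 0.5 and 0 of 5 SPF libraries did. The mature neutrophil list had medians of 0.05, 0.02 and 0.91, and 18 of its 20 genes were called in the step from 2 to 3 or 4. S100a8 rose by 1.18 ± 0.29 (edgeR adjusted p = 0.00578) and Mmp8, a collagenase of neutrophil granules, rose by 1.56 (edgeR adjusted p = 0.00149) in that step. B cell genes had medians of -0.18, -0.05 and -0.45, with 13 of 16 called in the upper step. The eosinophil list had medians of 0.20, -0.15 and -0.51.

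A step with many calls and a step with none are not shown to differ by those counts. In the test of the upper step minus the middle step, 0 genes were called and 2511 were at an unadjusted p under 0.05 (16.4%), with a lowest edgeR adjusted p of 0.242. At that unadjusted level were 19 of 24 erythroid genes and 8 of 20 mature neutrophil genes, with list medians of -1.09 and 0.80. Score 2 libraries enter both steps. High erythroid levels in them raise the middle step and lower the upper step together. The steps were not refitted without the 5 score 2 libraries with a TMM factor under 0.6. In the fit of score 1 and 2 without those libraries, the erythroid median was 0.21, with 0 of 24 genes at an unadjusted p under 0.05. That choice took out libraries high in erythroid genes, so it in part set this result. In the test of the middle step minus the lower step, 0 genes were called and 555 of 15356 were at an unadjusted p under 0.05 (3.61%). None of the 24 erythroid genes was among them, which is near that share for a list of this size.

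**Figure D5:**
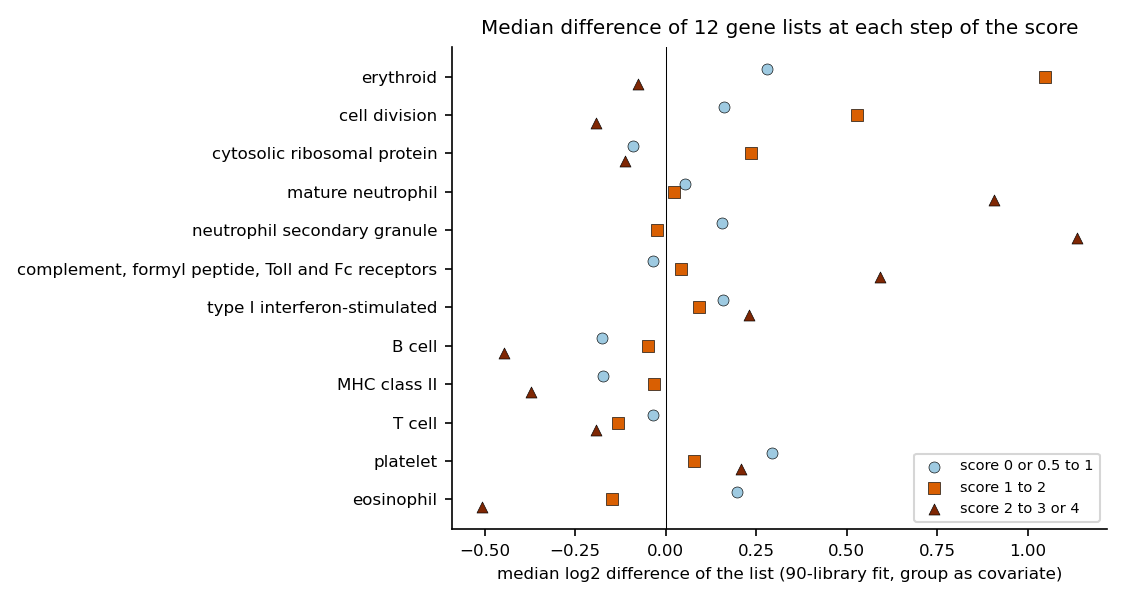
Median log2 difference of 12 gene lists at each step of the score in the 90-library fit, with a symbol per step. The erythroid list has its highest value at the step from score 1 to 2 (1.05), and the mature neutrophil list at the step from 2 to 3 or 4 (0.91). The fit includes the 5 score 2 libraries with a TMM factor under 0.6.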

How the data were processed

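Blood RNA-seq libraries were grouped by the dermatitis score, sampling day and group of their labels. The authors deposited a table of expected counts per gene, of which 2.86% were not whole, made with DRAGEN on GRCm39 per the submitters' processing notes; the version, annotation release and strand setting are not stated there. A deposited TPM table was not used. Counts were rounded, filtered (filterByExpr, minimum count 10, minimum total 15), scaled by TMM and tested with edgeR 4.0.16 in R 4.3.3 (quasi-likelihood, robust, two-sided, group as covariate, Benjamini-Hochberg over all genes tested). The same 38 libraries gave the day interaction, and 90 libraries the steps. DESeq2 1.42.0 was an alternative. The script was tested on simulated data. CPM values use TMM factors over 95 late libraries. Named genes were the 12 with the smallest p in each direction with a mean CPM of at least 1 and the same sign in at least 4 of 5 groups, plus the first 2 members of each list; other list members were named after their values were seen. The comparison and the lists were chosen with earlier results of these data known. Alternatives covered scaling, filter, tool, libraries, groups, days and covariates, and leaving out each of the 20 libraries of the groups with both scores. Some genes that the rule or the lists take in are not reported here by name.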

Additional observations from a re-analysis of the deposited data

How the results depend on the processing

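The count of genes called between score 2 and score 1, which was 0, became 1 without a filter on low counts, 1 in the fit of all 90 libraries and 1 without the group covariate, and the gene was Lrrc70 each time. It became 653 with DESeq2 and 15 on day 40 alone, and leaving out each of the 20 libraries of the groups with both scores gave 0 to 1, with Lrrc70 called without library 8 of score 1 in group 7. The interaction with day, 0 with edgeR, was 2 with DESeq2 (Ppp1r2-ps4 and 9930012K11Rik). The middle step minus the lower step, 0 as tested, was 7 without the filter. Of 1008 values of the 24 named genes over 42 alternatives, 1007 had the same direction, and Gucy1a1 in group 5 alone was at 0.03345. Past the threshold were 28 values. Most of the 28 came from DESeq2, which called 9 of the 12 genes named as higher and 12 of the 12 named as lower. The 24 genes were named for a small p and a shared sign in the same libraries. Their agreement in direction was therefore largely set by that choice. The globin share of score 2 minus score 1 turned to 0.19 percentage points without group 7. Without group 6, the mitochondrial rRNA share was -5.68 percentage points (exact permutation, adjusted p = 0.00694). Without group 2, 3, 5 or 7 it did not pass that test (adjusted p = 0.254, 0.131, 0.242 and 0.306). Without the 5 libraries with a TMM factor under 0.6, 660 genes were at an unadjusted p under 0.05, and without library 4 of group 7, 1235, beside 2396. With the globin and mitochondrial rRNA shares as covariates there were 463, and with the erythroid list mean 1007. The other 18 score 2 libraries were not left out one at a time. The causes were not tested. No paired analysis was possible because the libraries of both scores within a group carry different numbers. The difference rests on 11 and 9 libraries in 5 groups.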
